A study of Mus musculus with 8 samples.

Results

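The chemokines and their receptors were described in late fetal (E18.5) mouse skin, taken whole, with and without p63, the product of Trp63 and a transcription factor that stratified epithelia need. Members were all probe sets (groups of short probes for 1 transcript) with exactly 1 gene symbol, made of Ccl, Cxcl, Cx3cl, Xcl, Ccr, Cxcr, Cx3cr, Xcr or Ackr and a number. This gave 46 of 13675 named genes, 28 ligands and 18 receptors, with 57 of 24965 probe sets. The A chip carried 47 of them for 42 genes and the B chip 10 for 8 genes, with 4 genes on both chips. A further 4 probe sets of the A chip that list members of this family had several symbols and were not named. The embryos came from crosses of p63 heterozygous mice. The p63 null group and the wild-type group each had 2 arrays per chip, from skin samples numbered in the titles. The titles do not give the number of embryos. Which p63 allele, strain or sex was used is not stated in the labels, nor whether RNA of 1 embryo went onto an A chip and a B chip, so the chips were fitted apart and are not taken as independent replicates.

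Chemokines are small secreted proteins that guide cells along gradients held on matrix sugars. They are grouped by the spacing of their first cysteines, and act through receptors of the G protein-coupled family, while atypical receptors take chemokines up without that signal. In skin, keratinocytes, fibroblasts, vessels and resident leukocytes make them, and inflammatory members call in monocytes, neutrophils and lymphocytes. Whole skin is a mixture, so fewer cells of a type and less RNA per cell cannot be told apart in any value below.

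The largest change among the members was a rise of Ccl8, a chemoattractant of the monocyte chemoattractant protein group, and the next was a rise of Cxcl5, a ligand that attracts neutrophils. Ccl2, Ccl7, Ccl9, Ccl11, Ccl12, Ccl22, Cxcl1, Cxcl12, Ccr1 and Ccr2 were also higher in null skin. Cxcl14, a chemokine that normal epidermis makes without inflammation, Cxcr4, the signalling receptor of Cxcl12, and Ackr3, which removes Cxcl12, were lower. Of the 47 probe sets of the A chip, 22 had enough signal to be tested, and of these 13 were higher and 3 lower. Over all 7453 tested probe sets of that chip 22.1% were higher and 22.2% lower. So 16 of the 22 passed, where 44.3% of all did. The B chip had 5 of 10 tested, with 1 higher and 0 lower (29.4% of all passed), against 14.5% higher and 14.9% lower over 7446 tested. By at least 2-fold, 9 A-chip members were higher and 2 lower (6.6% and 6.86% of all tested), and on the B chip 1 was higher and 0 lower (4.3% and 6.43%). At an unadjusted p under 0.05 in limma, 1 of these 5 was lower (Cxcl17, described below).

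Values are signals as deposited, on a linear scale. A log2 fold change is the null mean minus the wild-type mean of log2(signal + offset). The offset was 12.9 for the A chip and 54.3 for the B chip, so fold changes understate the change of weak probe sets. Tests are limma's moderated test, two-sided, with Benjamini-Hochberg adjustment over all probe sets tested on the chip and a threshold of 0.05. A probe set was tested when its mean log2 value was above the 40th percentile of the chip, which corresponds to a signal of about 54.0 (A chip) or 167 (B chip). For Ccl7, Ccl8, Cxcl1 and Cxcl5 both wild-type arrays lay under that level, as both null arrays did for Cxcr4, so these 5 were tested only because they were high in 1 genotype. The same holds for the B-chip call, Ccr1, whose wild-type arrays were both under that chip's level. On the A chip Ccl11 and Ccr2 had mean wild-type signals of 49.4 and 53.95, under the unrounded level of 53.99. They too were tested only through their null arrays. A fit with no filter, which tests every probe set, avoids that choice. For the 5 A-chip probe sets it gave a limma adjusted p of 8.36e-05 (Ccl8), 0.000416 (Cxcl5), 0.00106 (Ccl7), 0.00530 (Cxcl1, 95348_at) and 0.00409 (Cxcr4). For Ccl11 and Ccr2 it gave a limma adjusted p of 0.00714 and 0.0156. It called 19 of the 47 A-chip members higher and 3 lower, where 11.9% of all 12422 probe sets were higher and 12.3% lower, and it called 0 of the 10 B-chip members, where 6.6% were higher and 7.3% lower (at an unadjusted p under 0.05 in limma, 1 of the 10 was higher and 1 lower). With 2 arrays against 2, an exact permutation test of a single probe set cannot give a two-sided p below 0.333.

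Arrays of a genotype correlated across tested probe sets at 0.950 to 0.984, and arrays of different genotypes at 0.769 to 0.865. Trp63 read 379.3 and 347.1 in wild-type skin against 61.9 and 46.6 in null skin on the A chip (log2 fold change -2.49, SE 0.18, limma adjusted p = 1.13e-05). For beta-actin, the signal near the downstream end over that near the upstream end, which grows as RNA is broken, was 1.63 and 1.69 for wild type but 1.27 for each null array of the A chip, and its part in the results was not tested. Null replicate 2 had the highest signal of an added control transcript (CreX, 6420 against 3334 to 3837 on the A chip). Calls that needed a particular array are named beside their values.

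The start regions of the members were read from RefSeq promoter windows of the GRCm38.p6 build, 250 bases before to 50 after a gene's start. Windows were matched for 35 of the 46 genes, 37 windows in all. None was matched for the higher genes Ccl2, Ccl7, Ccl11 and Cxcl5, nor for Ccl4, Ccl5, Ccl24, Ccr7, Cxcl16, Cxcl17 and Cxcr5. These were not searched, so the search covered 8 genes with a higher probe set. 3 letter patterns were searched on both strands: GGGA, any base, then TTTCC, a form of the site bound by NF-kappaB, GAAA, any 2 bases, then GAAA, a form of the interferon response element, and TATAAA, the core of the TATA box. The first was in 3 of 37 windows (8.11%, against 0.411% of all 32851 windows), the second in 2 (5.41% against 3.44%) and the third in 11 (29.7% against 13.6%), with 0 overlaps between different patterns. A match describes these letters only. The 5 windows below are shown because Ccl8 and Ccl12 are neighbours that rose, Cxcl1 and Cxcl2 are neighbours whose windows share the NF-kappaB form, and Cxcl14 had the largest fall. Capitals mark the matches.
Ccl8 (chr11:82114935-82115234, plus strand): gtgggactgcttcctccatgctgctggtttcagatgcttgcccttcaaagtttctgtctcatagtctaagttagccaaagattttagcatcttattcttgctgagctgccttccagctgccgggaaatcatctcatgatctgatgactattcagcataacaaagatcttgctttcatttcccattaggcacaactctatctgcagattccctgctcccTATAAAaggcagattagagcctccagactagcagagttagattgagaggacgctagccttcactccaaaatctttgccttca
Ccl12 (chr11:82101595-82101894, plus strand): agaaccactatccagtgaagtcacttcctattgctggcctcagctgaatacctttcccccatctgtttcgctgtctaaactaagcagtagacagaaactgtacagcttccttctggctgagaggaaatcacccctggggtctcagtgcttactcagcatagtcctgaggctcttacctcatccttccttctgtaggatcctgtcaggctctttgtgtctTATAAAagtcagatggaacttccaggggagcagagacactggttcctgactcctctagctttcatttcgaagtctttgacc
Cxcl1 (chr5:90890995-90891294, plus strand): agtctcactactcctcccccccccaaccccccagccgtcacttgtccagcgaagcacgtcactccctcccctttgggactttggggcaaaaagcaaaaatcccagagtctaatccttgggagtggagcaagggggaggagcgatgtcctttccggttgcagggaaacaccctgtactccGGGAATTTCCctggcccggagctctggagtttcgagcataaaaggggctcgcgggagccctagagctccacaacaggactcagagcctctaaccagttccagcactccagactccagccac
Cxcl2 (chr5:90903649-90903948, plus strand): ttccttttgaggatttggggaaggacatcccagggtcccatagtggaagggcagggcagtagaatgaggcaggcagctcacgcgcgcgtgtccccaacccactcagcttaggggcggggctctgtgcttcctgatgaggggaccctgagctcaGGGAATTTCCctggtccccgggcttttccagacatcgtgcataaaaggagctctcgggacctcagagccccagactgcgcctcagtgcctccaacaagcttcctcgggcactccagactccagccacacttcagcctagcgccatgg
Cxcl14 (chr13:56296502-56296801, minus strand): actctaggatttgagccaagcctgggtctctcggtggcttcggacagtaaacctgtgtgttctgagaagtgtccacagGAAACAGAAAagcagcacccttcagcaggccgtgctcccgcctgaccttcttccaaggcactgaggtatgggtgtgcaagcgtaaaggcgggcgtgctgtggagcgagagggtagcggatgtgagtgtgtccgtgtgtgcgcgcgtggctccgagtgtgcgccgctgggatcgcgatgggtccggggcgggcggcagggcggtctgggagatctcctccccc
In the Ccl8 and Ccl12 windows TATAAA starts 32 and 31 bases before the gene's start. GGGAATTTCC starts 71 bases before the start of Cxcl1 and 97 bases before that of Cxcl2, and a match on the opposite strand lies in the window of the eosinophil receptor Ccr3. GAAACAGAAA starts 172 bases before the start of Cxcl14, and GAAAGTGAAA 213 bases before that of Cxcl10, an interferon-inducible ligand.

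**Figure D1:**
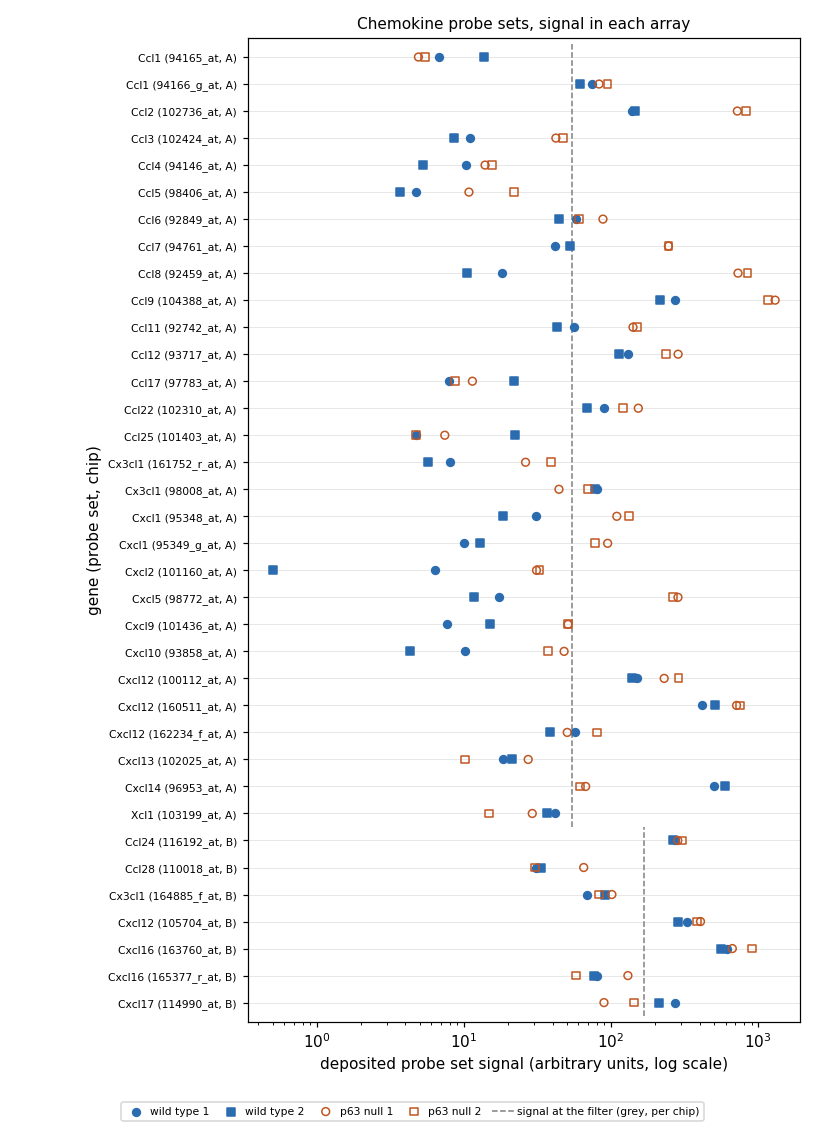
Deposited signal of the 36 ligand probe sets in each array, on a log axis in arbitrary units, with wild-type arrays as filled and p63 null arrays as open symbols. The dashed line is the signal that corresponds to the level for testing on each chip. Ccl8 moves from 10.5 and 18.2 in wild type to 728.6 and 845.1 in the null, and Cxcl14 runs the other way.

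Of the neutrophil-attracting CXC ligands, which act through Cxcr2, Cxcl5 and Cxcl1 were higher in null skin. Cxcl5 (98772_at) read 17.2 and 11.7 in wild-type skin against 284.7 and 263.6 in null skin. The groups were far apart, with a log2 fold change of 3.40 (SE 0.21, limma adjusted p = 3.84e-06). Cxcl1 (95348_at) read 30.8 and 18.3 in wild-type skin against 109.3 and 132.3 in null skin, a rise of 1.85 (SE 0.25, limma adjusted p = 0.000398). With the offset at the 40th percentile of the signals that value was 1.17. The other Cxcl1 probe set (95349_g_at) was too weak on average to be tested, and read 10 and 12.8 against 94.7 and 77.8, so both probe sets separated the genotypes in the same direction. Cxcl2 read 6.3 and 0.5 in wild-type skin against 31.1 and 32.6 in null skin and was likewise not tested. With no filter Cxcl2 and the second Cxcl1 probe set passed, with log2 fold changes of 1.48 (limma adjusted p = 0.00731) and 2.03 (limma adjusted p = 0.00284). Without null replicate 1 or without null replicate 2, Cxcl5 and Cxcl1 fell under the level for testing.

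The interferon-inducible ligands of Cxcr3 were weak in all arrays. Cxcl9 read 7.7 and 15.1 in wild-type skin against 50.9 and 51.1 in null skin, and Cxcl10 read 10.1 and 4.3 against 47.9 and 37.3. Both null arrays lay above both wild-type arrays for each gene, and neither was tested in the filtered fit. With no filter they passed, at 1.41 (limma adjusted p = 0.0112) and 1.47 (limma adjusted p = 0.00928). Cxcl13, the B cell attractant, read 10.1 to 27.3 with overlapping groups.

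Cxcl12, made by fibroblasts and vessel walls to hold and guide leukocytes and progenitors, had 4 probe sets on the chips. The probe set 160511_at read 413.0 and 508.7 in wild-type skin against 712.0 and 748.0 in null skin (log2 fold change 0.66, SE 0.14, limma adjusted p = 0.00424). The probe set 100112_at read 149.0 and 138.7 against 229.4 and 286.8 (0.78, SE 0.17, limma adjusted p = 0.00503). Another on the A chip, 162234_f_at, overlapped between genotypes (57.2 and 38.2 against 50.3 and 80.1) and did not pass, with an interval from -0.26 to 0.98. The B-chip probe set read 325.7 and 285.8 against 405.1 and 381.8, with a log2 fold change of 0.32 (95% interval -0.12 to 0.75, limma adjusted p = 0.237). All 4 estimates were above 0 and 2 passed the threshold.

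The epithelial CXC ligands had the only fall among the tested ligands that passed the threshold. Cxcl14 read 503.6 and 594.1 in wild-type skin against 67.1 and 61.6 in null skin, a fall of 2.86 on the log2 scale (SE 0.16, limma adjusted p = 1.88e-06) that passed under all 12 alternatives. Cxcl17, a chemokine of mucosal epithelia carried on the B chip, read 271.9 and 210.1 in wild-type skin against 89.4 and 142.5 in null skin. Its null arrays lay below both wild-type arrays, but it did not pass (log2 fold change -0.80, 95% interval -1.46 to -0.15, limma adjusted p = 0.0683). It passed with no variance trend (limma adjusted p = 0.0419) and without null replicate 2 (0.0274), and without null replicate 1 it did not (0.154). Cxcl16, a membrane-bound ligand that is also a scavenger receptor, read 613.5 and 558.2 against 666.6 and 909.8 (163760_at, 0.38, 95% interval -0.05 to 0.82, limma adjusted p = 0.159). Without null replicate 1 the value was 0.59 and passed (limma adjusted p = 0.0257), and without null replicate 2 it was 0.17 (limma adjusted p = 0.513). Its second probe set was not tested and overlapped between the genotypes. Keratinocyte markers moved with the fall of Cxcl14: all 6 tested of 9 on the A chip fell, with a median of -3.68, and their summed signal was 28877 to 29975 in wild-type skin against 3407 to 3860 in the null. The part of this difference in the Cxcl14 value was not tested. Of these markers, Ivl lay under the level for testing in both null arrays, and with no filter it passed (limma adjusted p = 8.66e-05). Krt5, Krt14 and Krt15 read at most 15.9 on the A chip and were not tested there, while the B-chip probe set of Krt15 fell by 3.71.

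CC ligands of the monocyte chemoattractant group rose together. Ccl8 (92459_at) read 18.2 and 10.5 in wild-type skin against 728.6 and 845.1 in null skin, a log2 fold change of 4.89 (SE 0.20, limma adjusted p = 2.41e-07). With the offset at the 40th percentile this value was 3.65. Ccl2, the main ligand of the monocyte receptor Ccr2, read 137.6 and 146.0 against 721.0 and 821.8 (2.34, SE 0.14, limma adjusted p = 2.60e-06). Its groups were separated by far more than the spread within them. Ccl7, another Ccr2 ligand, read 41.6 and 52.4 against 245.2 and 245.8 (2.11, SE 0.19, limma adjusted p = 3.36e-05). Ccl12, also a Ccr2 ligand, read 130.4 and 112.9 against 285.3 and 235.3 (1.02, SE 0.17, limma adjusted p = 0.00139).

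Ccl11, or eotaxin, which attracts eosinophils through Ccr3, read 55.9 and 42.9 in wild-type skin against 140.8 and 150.7 in null skin (1.36, SE 0.21, limma adjusted p = 0.000742). Ccl24, the other eotaxin on these chips, read 273.1 and 263.8 against 283.9 and 305.3 on the B chip and did not pass (0.11, 95% interval -0.35 to 0.58, limma adjusted p = 0.701). Whether the changes of the eotaxins differ was not tested, since the chips were fitted apart.

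Among the macrophage inflammatory proteins, Ccl9, a ligand of Ccr1, read 271.5 and 216.0 in wild-type skin against 1302.5 and 1168.1 in null skin (2.29, SE 0.14, limma adjusted p = 3.95e-06). Ccl6 read 57.7 and 44.3 against 88.0 and 60.2 and did not pass (0.43, 95% interval -0.12 to 0.99). Ccl3, Ccl4 and Ccl5, inflammatory ligands, were not tested, and read at most 10.9 in wild-type skin against 10.8 to 47.0 in the null. For each of these 3 genes both null arrays lay above both wild-type arrays, as they did for 31.3% of the 4969 untested A-chip probe sets. With no filter Ccl3 passed (1.35, limma adjusted p = 0.00819) and Ccl4 and Ccl5 did not (limma adjusted p = 0.180 and 0.0592).

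Ccl22, which attracts T cells through Ccr4, read 88.8 and 68.5 in wild-type skin against 153.0 and 119.8 in null skin (0.71, SE 0.21, limma adjusted p = 0.0229). The call was lost without wild-type replicate 2 (limma adjusted p = 0.137), without null replicate 1 (0.104) and with no filter (0.0660). Ccl17, the other Ccr4 ligand, read 7.9 to 21.9 with overlapping groups. One Ccl1 probe set read 74.7 and 61.0 against 82.8 and 94.6 and did not pass (0.33, 95% interval -0.14 to 0.81), and the other read 4.9 to 13.7. Ccl25, the thymic and gut ligand, read 4.7 to 22.1 and Ccl28, of mucosal epithelia, 30.4 to 65.1 on the B chip, both untested and with overlapping groups.

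The membrane-anchored chemokine Cx3cl1, or fractalkine, was read differently by its probe sets. The probe set 98008_at read 80.7 and 77.7 in wild-type skin against 44.2 and 69.7 in null skin (-0.42, 95% interval -0.97 to 0.12, limma adjusted p = 0.184). The untested 161752_r_at read 8.0 and 5.7 against 26.2 and 39.2 and passed with no filter (1.19, limma adjusted p = 0.0147), in the opposite direction. The B-chip probe set overlapped (68.9 and 90.9 against 101.2 and 82.5). No direction is therefore given for Cx3cl1. Xcl1, a ligand made by activated T and natural killer cells, read 41.7 and 36.7 against 29.1 and 14.8 and was not tested.

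**Figure D2:**
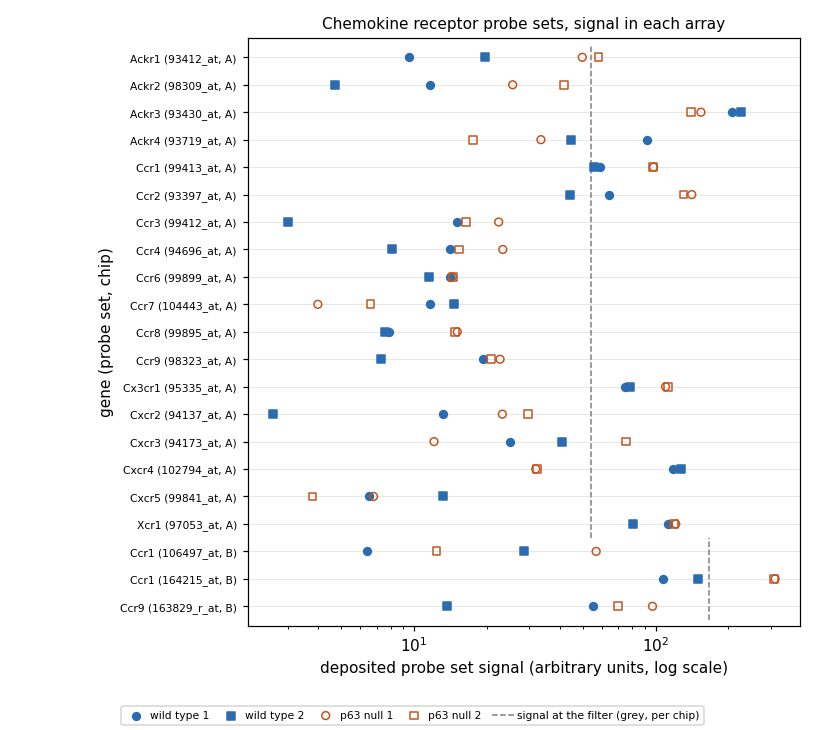
Deposited signal of the 21 receptor probe sets in each array, on a log axis in arbitrary units, with the level for testing as a dashed line. Of the 18 on the A chip 12 lie left of the level for testing on average; Cxcr4 is higher in wild type, and Ccr1 and Ccr2 are higher in the null.

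Receptors were weaker than the level for testing in most cases: 6 of 18 probe sets of the A chip and 1 of 3 of the B chip were tested. Ccr2, the receptor of Ccl2, Ccl7 and Ccl12 on monocytes, read 63.9 and 44.0 in wild-type skin against 141.0 and 130.3 in null skin (1.17, SE 0.22, limma adjusted p = 0.00242). Ccr1, a receptor of Ccl9 on monocytes and neutrophils, read 58.9 and 55.3 against 98 and 97.4 on the A chip (0.66, SE 0.20, limma adjusted p = 0.0248). Its B-chip probe set 164215_at read 107.4 and 149.2 against 312.0 and 309.4 (1.01, SE 0.24, limma adjusted p = 0.0196), and it was tested only through its null arrays. Neither Ccr1 call held throughout. That of the A chip was lost without any 1 of the 4 arrays (limma adjusted p of 0.0607 without wild-type replicate 1, 0.104 without wild-type replicate 2, 0.0695 without null replicate 1 and 0.0705 without null replicate 2) and with no filter (0.0654), and that of the B chip without wild-type replicate 1 (0.103) and with no filter (0.0529). The second B-chip probe set of Ccr1 was not tested and overlapped (6.4 and 28.5 against 56.7 and 12.4).

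Cxcr4, the signalling receptor of Cxcl12, read 118.4 and 127.4 in wild-type skin against 31.9 and 32.2 in null skin, a log2 fold change of -1.59 (SE 0.21, limma adjusted p = 0.000337). With the offset at the 40th percentile it was -1.05, and without either wild-type array the probe set fell under the level for testing. Ackr3, the atypical receptor that removes Cxcl12, read 206.4 and 225.4 against 153.9 and 140.3 (-0.52, SE 0.16, limma adjusted p = 0.0265). The Ackr3 call was lost on leaving out the first wild-type array (limma adjusted p = 0.0635), the second wild-type array (0.156) or the second null array (0.0755). So both receptors of Cxcl12 were lower in the null while 2 of the 4 Cxcl12 probe sets were higher.

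Cx3cr1, the fractalkine receptor of resident macrophages, read 74.5 and 78.1 in wild-type skin against 109.9 and 112.1 in null skin and did not pass (0.47, 95% interval 0.05 to 0.90, limma adjusted p = 0.0676). It passed with no variance trend (limma adjusted p = 0.0291). Xcr1, the Xcl1 receptor of dendritic cells, read 112.4 and 80.3 against 121.0 and 119.4 (0.30, 95% interval -0.16 to 0.76). Cxcr2, the receptor of Cxcl1, Cxcl2 and Cxcl5 on neutrophils, was not tested and read 13.2 and 2.6 against 23.2 and 29.7, and with no filter it did not pass (0.96, limma adjusted p = 0.0601). Ccr3, Ccr4, Ccr6, Ccr7, Ccr8, Cxcr5 and the A-chip probe set of Ccr9, receptors mostly of lymphocytes, eosinophils and dendritic cells, read at most 23.3 in every array. The B-chip probe set of Ccr9 was not tested either, and read 55 and 13.7 against 97 and 69.6. Cxcr3 read 24.9 and 41.1 in wild-type skin against 12.1 and 75.3 in null skin, so that the null arrays lay on both sides of wild type.

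The other atypical receptors were below the level for testing on average. Ackr1, which binds inflammatory chemokines on venules and red cells, read 9.5 and 19.7 in wild-type skin against 49.7 and 58.0 in null skin. Ackr2, which clears inflammatory CC chemokines in lymphatic vessels, read 11.7 and 4.7 against 25.6 and 41.8. With no filter both passed, at 1.30 (limma adjusted p = 0.0196) and 1.14 (limma adjusted p = 0.0317). Ackr4, which clears the lymph node and thymic CC ligands, read 92.4 and 44.5 in wild-type skin against 33.5 and 17.6 in null skin, and did not pass with no filter (-1.05, limma adjusted p = 0.0984).

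**Figure D3:**
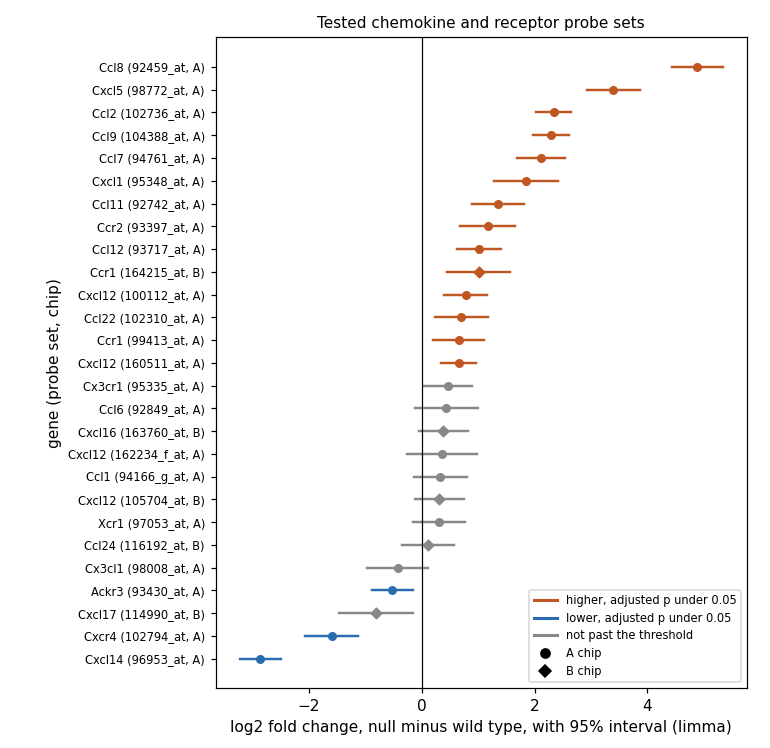
Log2 fold change (null minus wild type) of the 27 tested probe sets with the 95% interval from limma, A chip as circles and B chip as diamonds. Orange marks 14 higher and blue 3 lower; Ccl8 is at 4.89 and Cxcl14 at -2.86.

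Over all 47 A-chip members, tested or not, both null arrays lay above both wild-type arrays for 33 and below for 8, and the groups overlapped for 6. Over all 12422 probe sets of the chip, without controls, the shares were 35.2% above and 28.1% below. On the B chip 5 of 10 lay above and 1 below, against 32.8% and 25.1%. The median log2 fold change of the members was 0.61 (A chip) and 0.25 (B chip), beside medians of 0.06 and 0.06 over all probe sets with no filter. The 30 untested members read between 0.5 and 130.0, and for them 17 lay above, 4 below and 9 overlapped. By chip these were 16 above and 4 below of 25 on the A chip, where 31.3% and 15.9% of untested probe sets were so, and 1 above and 0 below of 5 for the B chip, where 28.1% and 15.4% were so.

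Many members sit next to each other in the genome. In the gene order of RefSeq, 26 of the 46 genes fell into 7 runs, counting members that lie within 5 protein-coding genes of each other. In the longest run, in the order Ccl2, Ccl7, Ccl11, Ccl12, Ccl8 and Ccl1, the first 5 rose by 2.34, 2.11, 1.36, 1.02 and 4.89, and Ccl1 did not pass. In the run of Ccl5, Ccl9, Ccl6, Ccl3 and Ccl4, Ccl9 passed. In the run of Cxcl5, Cxcl1 and Cxcl2 the first 2 rose and Cxcl2 was not tested. In the run of Ccr9, Xcr1, Ccr1, Ccr3 and Ccr2, Ccr1 and Ccr2 rose. Related neighbours can be similar in sequence, so their probe sets may read each other's transcripts.

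**Figure D4:**
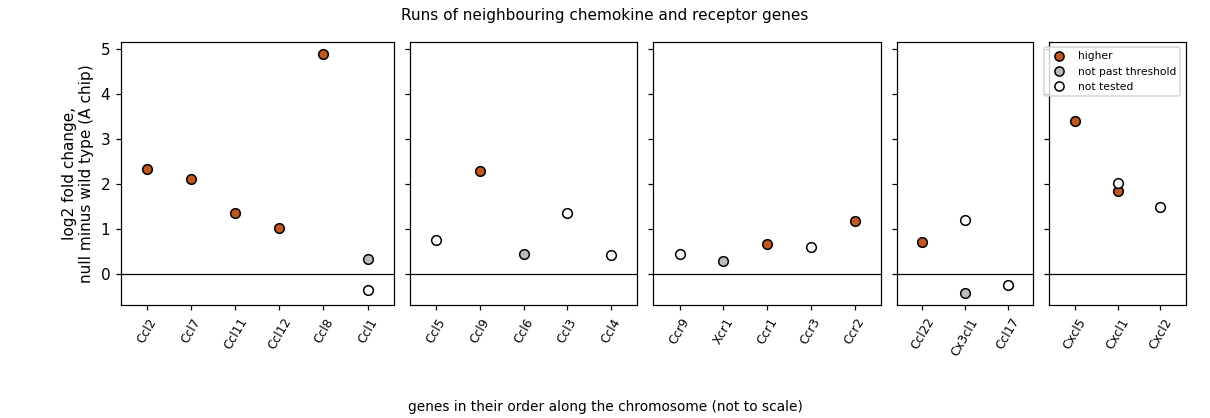
Log2 fold change (null minus wild type, A chip) of the members in the 5 runs of at least 3 neighbouring genes, in chromosomal order and not to scale, 1 point per probe set. Orange points passed, grey points did not, and open points were not tested; 5 of the 6 genes of the longest run passed.

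Genes around the chemokine system were read from lists, each gene by its tested probe set with the highest mean. Over all genes so read on the A chip 22.4% were higher and 22.8% lower, with a median of 0.01, while 16.1% and 16% were so on the B chip, with a median of 0.04. Inducers of chemokines and their response factors were higher in 17 and lower in 2 of 25 tested genes of the A chip, with a median of 0.68. The interferon regulatory factor Irf7 and the oncostatin M receptor Osmr rose by 2.75 and 1.49, and the cytokine Il1a and the interleukin-1 antagonist Il1rn, both abundant in keratinocytes, fell by 2.72 and 1.81. Irf7 in both wild-type arrays and Il1a in both null arrays lay under the level for testing; with no filter both passed (limma adjusted p = 0.000472 and 0.000540). The cytokines Tnf, Il1b, Il6, Il17a, Ifng, Ifnb1 and Csf2 were not tested and read at most 42.2. Of these only Il17a passed with no filter (limma adjusted p = 0.0266), at low signals of 5.4 and 2.1 in wild-type skin against 15.5 and 14.9 in null skin. Of 3 tested on the B chip 1 passed, Stat2 (1.18).

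Of 29 tested genes of the A chip that carry signals from chemokine receptors, 10 rose and 4 fell, with a median of 0.19. Jak3 and the actin regulator Was, both of blood cells, rose by 1.24 and 1.05, and the Rac activator Tiam1 and the G protein subunit Gnai3 fell by 1.66 and 1.20. Among 11 tested on the B chip 1 rose, the Rac activator Prex1 (0.91), and 1 fell, Gnai3 (-1.58). Of proteins that bind, cut or present chemokines 5 rose and 1 fell of 13 tested on the A chip, with a median of 0.28. They were led by the macrophage elastase Mmp12 (3.65), the heparan sulfate proteoglycan Hspg2 (1.04), the matrix proteoglycan Vcan (0.79) and the protease Mmp14 (0.70). Mmp12 was under the level for testing in both wild-type arrays, and with no filter it passed (limma adjusted p = 0.000428). The syndecan Sdc3 rose by 1.71 on the B chip, as 1 of 3 tested. Of chemokines and receptors under other names 3 of 7 on the A chip were tested and 1 rose, Rarres2, the chemerin precursor (0.62), and of 3 tested on the B chip 0 passed (0 also at an unadjusted p under 0.05 in limma).

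Markers of leukocytes moved with these genes. Macrophage markers were higher in 13 and lower in 0 of 14 tested genes of the A chip, with a median of 1.23 and a summed signal of 3888 to 4140 in wild-type skin against 10647 to 11323 in the null. Among them the complement gene C1qa rose by 2.09. Pan-leukocyte markers were higher in 6 of 7 tested, with a median of 1.03, led by the tetraspanin Cd53, which rose by 1.55. Ptprc among them was under the level for testing in both wild-type arrays, and with no filter it did not pass (limma adjusted p = 0.0511). Neutrophil markers were higher in 4 of 6 tested of 14 on the chip, and their summed signal was 819 to 892 in wild-type skin against 4277 to 4356 in the null. S100a8 and S100a9, which stressed keratinocytes also make, carried most of that sum in null skin, while Ly6g, Mpo and Prtn3 read at most 33.3 in every array. Mmp8, Mmp9, Ngp and Ltf, granule proteins of neutrophils, were not tested and read at most 13.8 in wild-type skin against 71.0 to 136.8 in the null. With no filter each of these passed (limma adjusted p = 0.00140, 0.00104, 0.00230 and 0.00200), while the untested Ly6g, Mpo, Prtn3 and Chil3 did not. The granule genes Camp and Elane were tested and did not pass, with log2 fold changes of -0.14 and 0.31 (limma adjusted p = 0.440 and 0.342). Of the T cell list 0 of 2 tested genes passed and of the B cell list 0 of 2, and 0 of either at an unadjusted p under 0.05 in limma. The T cell receptor chains Cd3d, Cd3e and Cd3g read at most 17.1 on the A chip. Of the dendritic and Langerhans list 0 of 4 passed (0 also at an unadjusted p under 0.05 in limma), and it summed to 801 to 827 in wild-type skin against 743 to 770 in the null. Its untested genes were H2-Ab1 (90.6 and 74.2 against 19.3 and 43.6), H2-Aa (70.4 and 88.5 against 13.3 and 43.7) and Cd83 (20.4 and 13.9 against 22.0 and 34.7). With no filter none of them passed (limma adjusted p = 0.0506, 0.0678 and 0.276). Cd207 of that list was not read on either chip. Blood endothelium markers were higher in 6 of 8, with a median of 0.77, and dermal fibroblast markers in 4 of 9, with a median of 0.38. Mast cell markers were higher in 4 of 6, lymphatic ones in 2 of 3, fat cell ones in 3 of 4, skeletal muscle ones in 4 of 4 and red cell ones in 2 of 4. The fat cell gene Ucp1 was under the level for testing in both wild-type arrays, and with no filter it passed (limma adjusted p = 1.45e-05). The 5 natural killer cell and 3 platelet genes on the A chip were not tested. The part of these differences in the chemokine values was not tested.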

How the data were processed

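Total RNA of whole skin was extracted with TriZol, cleaned up and labelled with biotin per the labels' protocols. The deposited values are linear signal intensities per probe set, made by the authors with MAS5 per the submitters' processing notes; no version or detection call was used, so no probe set was called present or absent. The 2% trimmed means were nearly equal (250.1 to 250.2 for the A chip, 500.1 for the B chip), so the deposited intensities were already scaled. The number of arrays limits the precision.

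Arrays were rescaled to a common 2% trimmed mean, an offset at the 20th percentile of the signals was added, and log2 values of each chip were fitted with limma 3.58.1 (R 4.3.3, eBayes with an intensity trend), null against wild type by sample title. Controls, 66 per chip, did not enter the fit. Probe sets above the 40th percentile of mean log2 were tested. Replicates are skin samples, numbered in the titles, which give neither litters nor the number of embryos. The p-values measure only the spread between these samples. Deviations of same-numbered arrays correlated at 0.04 (A chip) and -0.05 (B chip), so no pairing was used. Symbols come from the platform annotation, which can be old (1 symbol for 10855 probe sets of the A chip and 10603 of the B chip, several for 396 and 178, none for 1237 and 1696); by gene identifier 10839 and 10572 were found in the GRCm38.p6 RefSeq table. On simulated A-chip data with 200 changed genes over 7453 tested, 94 of 100 changes of 1 log2 unit were recovered. On B-chip data over 7446 tested, 81 of 100 were. The whole simulations, which also held changes of 2 log2 units, gave 14 and 12 false calls. In the data 44.3% of tested A-chip and 29.4% of tested B-chip probe sets passed, a far larger share than was changed in the simulations. Recovery and false calls at such shares were not measured. Changed genes were drawn from above the chip's median of mean log2, so recovery at weaker signals, as in many members, was not measured. The members and lists were chosen with earlier results of these data known. A member was named with its values when it or another probe set of its gene passed, or when its highest signal exceeded the chip's median; examples of the pathway lists are the members that passed with the largest absolute change. Other lists' members and weak members named here were chosen after their values were seen.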

Additional observations from a re-analysis of the deposited data

How the results depend on the processing

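Each of the 27 tested members was refitted under up to 12 alternatives, 295 values in all. Of these, 277 kept their direction and their side of the threshold, 13 lost the call, 5 gained one and 0 changed direction. Of the 16 called A-chip probe sets, 13 kept their call wherever they were tested; Ccl22, Ccr1 and Ackr3 did not. Leaving out 1 array moved the A-chip counts from 13 higher to between 9 and 12 and from 3 lower to between 1 and 3. Part of this came from probe sets that fell under the level for testing (Cxcl5 and Cxcl1 without either null array, Cxcr4 without either wild-type array). On the B chip those counts ran from 0 to 2 higher and from 0 to 1 lower. With the filter at the 60th percentile, which left 7 of the 47 A-chip members and 1 of the 10 B-chip members to test, 5 A-chip members were higher and 0 B-chip members. The called A-chip probe sets of Ccl7, Ccl8, Ccl11, Ccl22, Ccr1, Ccr2, Cxcl1, Cxcl5 and Cxcr4 were not tested there, so that setting says nothing on whether their calls hold. With no filter 19 A-chip members were higher, 11 of them among the 13, and 0 B-chip members. Cxcl17 passed as lower, giving 1 instead of 0 on the B chip, with no variance trend (limma adjusted p = 0.0419), with the replicate number as a block (0.0479) and without null replicate 2 (0.0274). Otherwise the replicate block changed no call among the members: A-chip counts stayed at 13 higher and 3 lower, and the B chip at 1 higher. Median centring and quantile normalization changed none of the 17 calls where tested. Except for the changes in which probe sets were tested, the causes were not tested. Signal close to background limits the 30 untested members, for which only levels are given.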
